A study of Mus musculus with 6 samples.

Results

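Noncanonical miRNA genes, whose products are made without the Microprocessor, were examined in mouse embryonic stem cells (ESCs) and in neuronal cells (NCs) derived from them. The 6 genes, mir-484, mir-877, mir-1981, mir-702, mir-1224 and mir-320, were chosen by name from a table of 898 miRNA genes. Their levels did not enter the rule, but earlier results of these data were known when the choice was made. Of the 898 genes, 634 were above 0 in either group, and all 6 members were among them. E14Tg2a cells, an established mouse ESC line at passage 37-40, were kept in Leukemia Inhibitory Factor (LIF), which holds them in the pluripotent state, for the 3 ESC libraries. For the 3 NC libraries, monolayers without LIF received 1 µM retinoic acid (RA) for 48 hours to start differentiation towards neurons. The labels name no transgene or deletion, and both groups came from 1 line. Small-RNA sequencing measured both groups to ask which miRNAs differ between these states. No label ties a library to a separate culture, so p-values measure only the spread between these libraries.

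Most miRNAs are cut from a long primary transcript by the Microprocessor, the nuclear complex of the nuclease Drosha and its RNA-binding partner Dgcr8, and are then cut again by Dicer. Mirtrons bypass the first cut: a short intron is spliced out, its lariat is opened, and the intron itself folds into a hairpin for Dicer. Other hairpins bypass it because the hairpin is itself the start of a capped transcript, as is known for mir-320 and mir-484.

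The mature sequences are shown because those of mirtrons carry a mark of their route, the ends of an intron. RefSeq (GRCm38.p6) held sequences for 5 of the 6 members, all but mir-320. They are written 5′ to 3′, with the seed (bases 2 to 8, which pair with targets) in capitals.

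miR-484: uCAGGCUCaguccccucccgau
miR-877-5p: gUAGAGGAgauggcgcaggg
miR-877-3p: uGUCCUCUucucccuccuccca
miR-1224-5p: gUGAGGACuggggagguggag
miR-1224-3p: cCCCACCUcuucucuccucag
miR-702-5p: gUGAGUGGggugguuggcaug
miR-702-3p: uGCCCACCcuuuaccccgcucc
miR-1981-5p: gUAAAGGCugggcuuagacguggc
miR-1981-3p: cAUCUAACccuggccuuugac

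The 9 arms had 9 different seeds. Of these seeds, 1 was found in another mature miRNA: that of miR-702-5p, in miR-3102-5p. Mature sequences were at hand for 740 of the 898 genes of the table, and the remaining genes were not searched. No whole arm was found in the hairpin of another gene, so reads of these miRNAs had no second annotated hairpin among the sequences at hand. The arms were rich in G and C. Their GC content ranged from 52.4% to 68.2% with a median of 61.9%, and 9 of 9 lay above the median of all mature miRNAs of the table with a sequence, 52.2%.

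In 3 members the annotated hairpin began and ended with a host intron, and these hairpins are shown whole, with the first and last bases of the intron (GU and AG, the marks of a splice donor and acceptor) in capitals.

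mir-877: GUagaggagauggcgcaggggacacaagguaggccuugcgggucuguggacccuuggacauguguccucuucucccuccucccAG
mir-1224: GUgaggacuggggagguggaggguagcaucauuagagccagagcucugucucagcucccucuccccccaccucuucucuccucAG
mir-1981: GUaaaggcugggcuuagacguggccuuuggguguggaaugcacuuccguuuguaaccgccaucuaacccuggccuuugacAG

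Positions were those of GENCODE M21 on GRCm38. The mir-877 hairpin (chr17:35960730-35960814, minus strand) was an intron of 85 bases of Abcf1, which encodes an ABC family protein linked to translation. The mir-1224 hairpin (chr16:20604452-20604536, plus strand) was an intron of 85 bases of Vwa5b2. The mir-1981 hairpin (chr1:184822407-184822488, minus strand) was an intron of 82 bases of Marc2, which encodes a mitochondrial reductase. In each of the 3, the 5p arm began at the first base of the intron, and the 3p arm ended 0 to 2 bases before its last.

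The mir-702 hairpin (chr5:136991433-136991541, plus strand) was drawn differently in the annotation. It spanned 109 bases, began 9 bases upstream of an intron of 102 bases of Plod3, a gene for a collagen-modifying enzyme, and ended 2 bases before the end of that intron. The mature arms nevertheless met the intron ends in the same way, since miR-702-5p began at the first intron base and miR-702-3p ended 2 bases before the last.

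**Figure D1:**
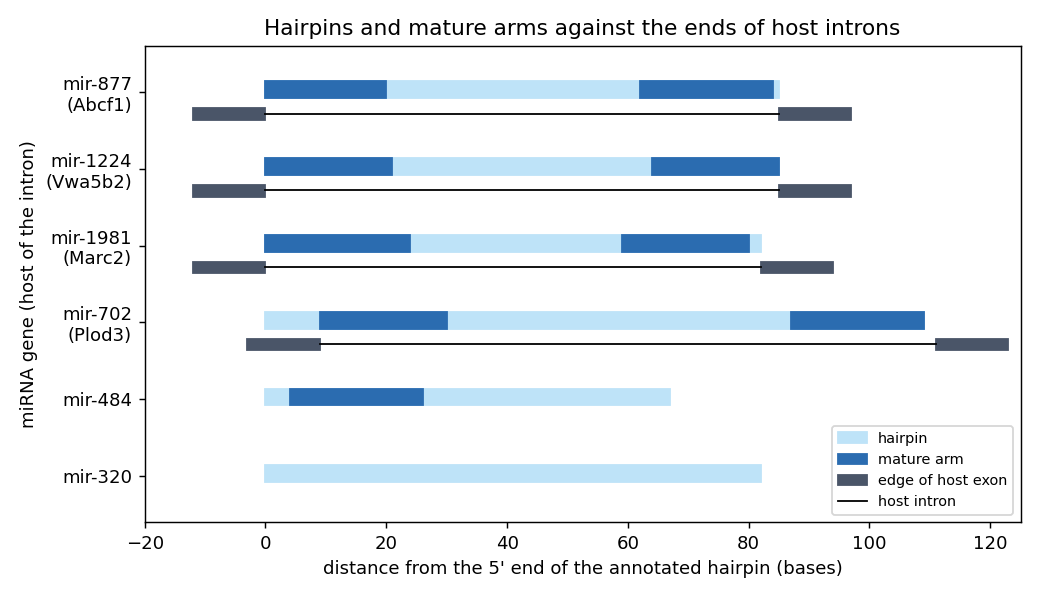
Annotated hairpins (light bars) and mature arms (dark bars) of the 6 genes against their host introns (lines between exon edges), in bases from the 5′ end of the hairpin. The 5p arms of mir-877, mir-1224, mir-1981 and mir-702 start at the first intron base, while mir-484 and mir-320 have no host intron, and no arm is drawn for mir-320.

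The other 2 members lay in no intron of this kind. The mir-484 hairpin (chr16:14159626-14159692, plus strand, 67 bases) overlapped an exon of Marf1 on the opposite strand, and the nearest annotated gene start, that of Marf1, was 359 bases away. The mir-320 hairpin (chr14:70443510-70443591, plus strand, 82 bases) lay between genes, and the nearest annotated start, on the opposite strand, was that of Polr3d, a subunit of RNA polymerase III, 63 bases away. In both cases the nearest start belonged to a gene read in the other direction.

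The deposited values were group means, from which the whole reads of each library were recovered. This resolved 526 of the 549 miRNAs detected in ESCs, and in NCs 577 of 602. Resolved reads per library ranged from 81516 to 296219, and the size factors that scale the libraries differed by up to 4.21-fold. The recovered libraries carry no replicate number and are called A, B and C in each group, with A the deepest and C the shallowest by size factor. Markers moved with the labels: in the authors' means the pluripotency miRNA mir-302a went from 299 in ESCs to 15.05 in NCs and the RA-responsive mir-10a from 2136 to 754551. Library C stood apart from A and B in both groups. Over 306 resolved miRNAs whose mean reached 10, the log2 difference of C from the mean of A and B had an SD of 1.33 in ESCs and of 1.19 in NCs. For A minus B, the SD was 0.397 and 0.292. The reads of each member are therefore given for every library. Where a ratio of NCs to ESCs is given for single members, A and B are shown apart from C. Ranks, shares of signal and likeness of pattern all include library C.

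A single member, mir-484, was abundant. The levels below are normalised reads, that is reads divided by the size factor of the library. Mature miRNAs are of similar length, so no length correction was made, though whether every counted read was a mature arm is not known. In the authors' means mir-484 was at 2668 in ESCs, rank 34 of 549 miRNAs above 0, and at 2487 in NCs, rank 42 of 602. Its share of all miRNA signal was 0.231% in ESCs and 0.155% in NCs. The mirtrons were much lower, and mir-320 was barely seen.

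The order of the authors' means was the same in both groups. After mir-484 came mir-877 (106 in ESCs, 80.9 in NCs), mir-1981 (35.8 and 49.2), mir-702 (8.40 and 14.4), mir-1224 (6.16 and 9.23) and mir-320 (0.561 and 0.145). Compared over single libraries, mir-484 lay above mir-877 with no overlap, as did mir-1981 over mir-702 and mir-1224 over mir-320. The ranges of mir-877 and mir-1981 overlapped in both groups, and so did those of mir-702 and mir-1224. Compared within each library, mir-877 lay above mir-1981 in every one, and mir-702 above mir-1224 in all but NC library C. Some of these gaps were small, such as 17 against 15 reads for mir-877 and mir-1981 in ESC library B. The order of these neighbours was not tested.

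**Figure D2:**
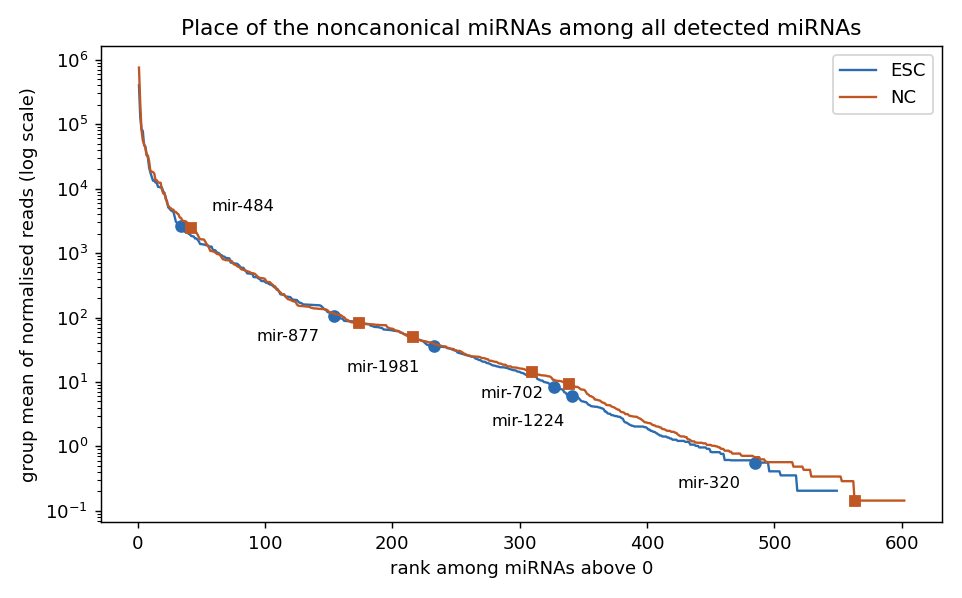
Group mean of normalised reads (log axis) against rank for all miRNAs above 0 in ESCs (line and circles) and NCs (line and squares), with the 6 noncanonical members marked. The members span from rank 34 to 485 in ESCs and from 42 to 563 in NCs.

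mir-484, the short hairpin made from a capped transcript, had 2168, 1232 and 2931 reads in ESC libraries A, B and C. These were 1337, 1314 and 5355 normalised reads. In NCs it had 3319, 1466 and 2644 reads, or 1439, 1501 and 4521 normalised reads. Libraries A and B were thus close to each other, and library C stood several-fold above them in both groups. Library C supplied 66.9% of the ESC mean and 60.6% of the NC mean. The ranges of the groups overlapped. From ESCs to NCs the mean of A and B went from 1325 to 1470, a ratio of 1.11, whereas the ratio in library C was 0.844 (95% exact interval 0.801-0.890, counting error only).

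mir-877, the mirtron of Abcf1, had 34, 17 and 153 reads in ESC libraries A, B and C, or 20.96, 18.1 and 279.5 normalised reads. In NCs it had 87, 40 and 96 reads, or 37.7, 41.0 and 164 normalised reads. Libraries A and B placed it higher in NCs and library C placed it lower, so that the groups overlapped. Library C was 14.3 times the mean of A and B in ESCs and 4.17 times in NCs, and it supplied 87.7% of the ESC mean. The ratio of NCs to ESCs was 2.01 in the mean of A and B and 0.587 in library C (95% exact interval 0.450-0.763, counting error only). The higher ESC mean in the deposited values thus came from 1 library.

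mir-1981, the mirtron of Marc2, had 27, 15 and 41 reads in ESC libraries A, B and C, or 16.6, 16.0 and 74.9 normalised reads. In NCs it had 54, 21 and 60 reads, or 23.4, 21.5 and 102.6 normalised reads. NC values lay above ESC values both among the deeper libraries and in library C, but the ranges over all libraries overlapped. The ratio of NCs to ESCs was 1.38 in the mean of A and B and 1.37 in library C (95% exact interval 0.906-2.09). Library C was 4.59 times the mean of A and B in ESCs and 4.57 times in NCs.

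mir-702, the hairpin over the Plod3 intron, had 8, 7 and 7 reads in ESC libraries A, B and C, or 4.93, 7.47 and 12.8 normalised reads. In NCs it had 47, 19 and 2 reads, or 20.4, 19.5 and 3.42 normalised reads. NC libraries A and B lay above every ESC library, and NC library C lay below every one of them. The ratio of NCs to ESCs was 3.21 in the mean of A and B and 0.267 in library C (95% exact interval 0.0271-1.40). That last ratio rests on 2 reads in NCs, for which the 95% Poisson interval spans 0.414 to 12.4 normalised reads.

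mir-1224, the mirtron of Vwa5b2, had 7, 3 and 6 reads in ESC libraries A, B and C, or 4.32, 3.20 and 10.96 normalised reads. In NCs it had 15, 4 and 10 reads, or 6.50, 4.10 and 17.1 normalised reads. The groups overlapped, also among the deeper libraries alone. The ratio of NCs to ESCs was 1.41 in the mean of A and B and 1.56 in library C (95% exact interval 0.514-5.22).

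mir-320, a hairpin made from a capped transcript like mir-484, had 1, 1 and 0 reads in the ESC libraries and 1, 0 and 0 reads in the NC libraries. Both group means were under the level that 3 reads in each library would give, 3.51 in ESCs and 3.17 in NCs. A difference of mir-320 was therefore not detectable at this depth, and no fold is given. The 2 capped hairpins of the set thus stood at opposite ends of its range.

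**Figure D3:**
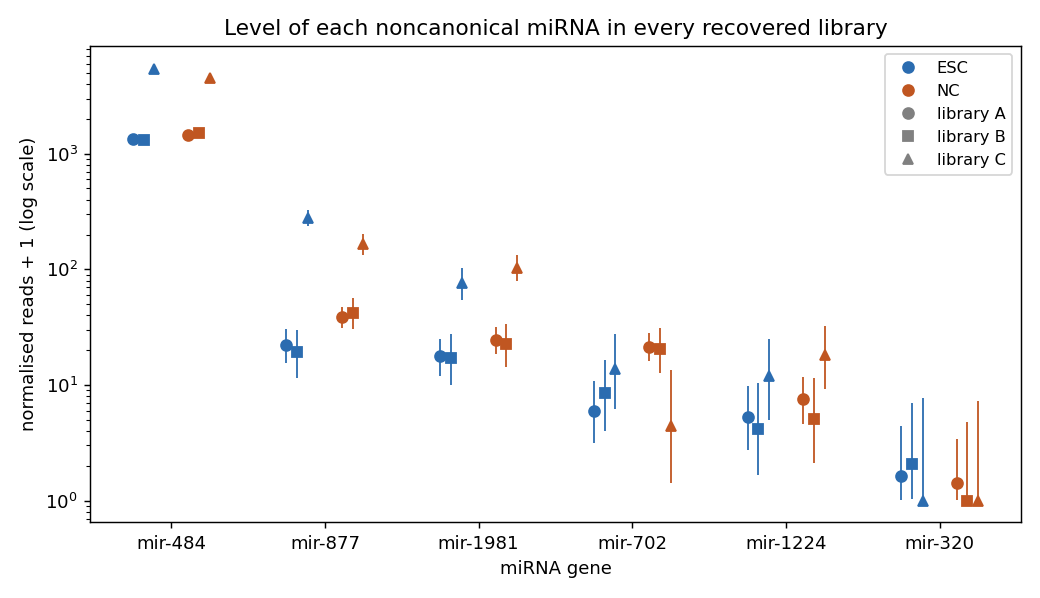
Normalised reads plus 1 (log axis) of each member in ESC (blue) and NC (orange) libraries A (circle), B (square) and C (triangle), with 95% Poisson intervals for counting error. The triangles of mir-484, mir-877, mir-1981 and mir-1224 lie above the other symbols of the same group, and that of mir-702 in NCs lies below them.

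With library C included, no member separated the 2 groups: the libraries of ESCs and NCs overlapped for all 6. Non-overlapping groups were found for 97 (31.7%) of the 306 miRNAs with a mean of at least 10, a set that mir-1224 and mir-320 were too low to enter.

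Next, the difference between NCs and ESCs was tested by limma-voom on reads from all 6 libraries, with Benjamini-Hochberg adjustment over every miRNA tested. Of 314 miRNAs with enough reads, 49 (15.6%) passed an adjusted p of 0.05, 31 higher and 18 lower in NCs. The 49 held 0 of the 3 members tested, and 81 miRNAs had an unadjusted p under 0.05. The log2 fold change (NC minus ESC) of mir-484 was 0.01 (95% interval -1.66 to 1.69, adjusted p = 0.991). That of mir-877 was 0.61 (-1.75 to 2.97, adjusted p = 0.790). That of mir-1981 was 0.47 (-1.27 to 2.21, adjusted p = 0.790). These intervals are wide and allow a change of 2-fold or more in either direction.

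Without the filter on low reads, 36 of 608 miRNAs (5.92%) were called, again with no member among them. In this fit the log2 fold change was 0.45 for mir-1224 (95% interval -1.07 to 1.98, adjusted p = 0.895) and 0.87 for mir-702 (-0.72 to 2.45, adjusted p = 0.703). Neither difference was larger than the spread between libraries.

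The spread of library C was then set apart in 2 ways. With the library set (C, or A and B) as a covariate, 141 of 314 miRNAs (44.9%) were called, and 0 of 3 members. The intervals narrowed, to -0.28 to 0.30 around 0.01 for mir-484 (adjusted p = 0.964) and to -0.01 to 0.91 around 0.45 for mir-1981 (adjusted p = 0.101). For mir-877 the value was 0.04 (-0.67 to 0.76, adjusted p = 0.933), below the 0.61 without the covariate. In this fit the interval of mir-484 thus reached no further than about 0.30 on the log2 scale, given the scaling used. With A and B alone its upper end was 0.40, and with all 6 libraries the interval was -1.66 to 1.69. The covariate takes the shift of library C as equal in ESCs and NCs.

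With the deeper libraries A and B alone, 160 of 322 miRNAs (49.7%) were called, and 2 of the 4 members tested, a share near that background. mir-877 was higher in NCs by 0.95 on the log2 scale (95% interval 0.39 to 1.51, adjusted p = 0.00802). The values of mir-1981 (0.46, adjusted p = 0.198) and mir-484 (0.14, adjusted p = 0.322) did not pass. mir-702 was higher by 1.71 (0.86 to 2.56, adjusted p = 0.00281), but it met the filter of 10 reads in 2 libraries only through NCs, where it was high. The fit was therefore repeated on A and B without the filter, which called 160 of 585 miRNAs (27.4%) and 2 of 6 members. There mir-702 was higher by 1.72 (0.80 to 2.64, adjusted p = 0.00304), and mir-877 by 0.95 (adjusted p = 0.0144).

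The scaling between groups moved these values. The share of mir-10a in all miRNA signal was 0.185% in ESCs but 47.1% in NCs, and setting the group totals equal shifted every log2 fold change by -0.48, or by 0.44 when mir-10a was left out of the totals. With A and B alone and no filter, the log2 fold change of mir-702 was 1.24 with equal totals (adjusted p = 0.0288) and 2.16 without mir-10a (adjusted p = 0.000143). That of mir-877 was 0.48 with equal totals, where it no longer passed (adjusted p = 0.235), and 1.39 without mir-10a (adjusted p = 0.000218). For mir-484 the direction depended on the scaling: -0.33 with equal totals (adjusted p = 0.0439) and 0.58 without mir-10a (adjusted p = 0.000321). mir-1981 was at -0.02 with equal totals (adjusted p = 0.977) and at 0.90 without mir-10a (adjusted p = 0.0385). Of the members, mir-702 was called higher in NCs under each of the 3 scalings of A and B, on 15 ESC and 66 NC reads and without library C, where its value was lower in NCs.

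**Figure D4:**
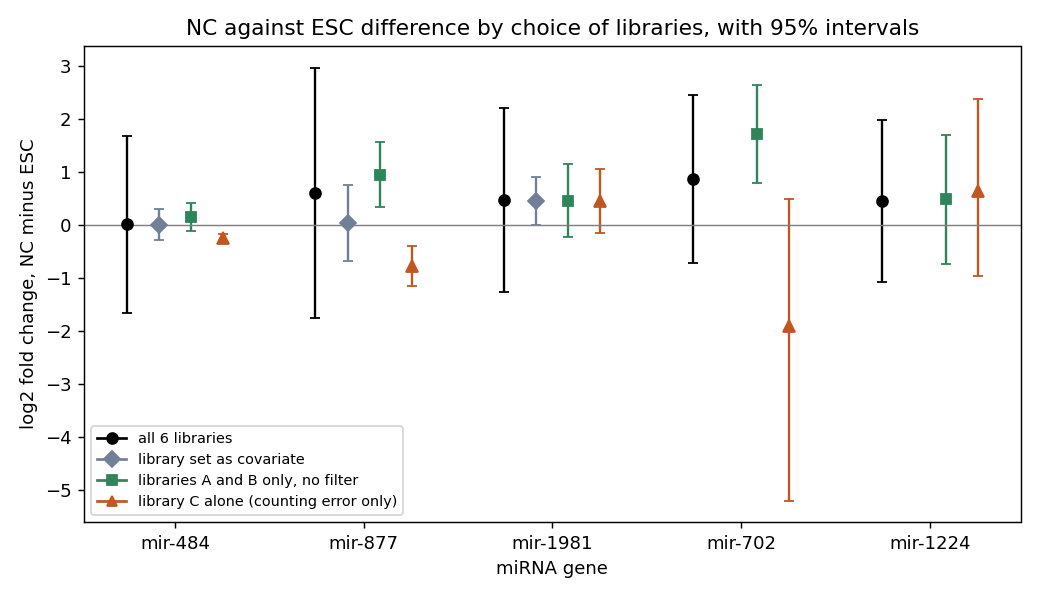
Log2 fold change (NC minus ESC) of the members other than mir-320. Circles are from all 6 libraries, without the filter on low reads for mir-702 and mir-1224. Diamonds have the library set as covariate and are absent for mir-702 and mir-1224. Squares are from libraries A and B without the filter, and triangles from library C alone. Bars are 95% intervals, which for library C cover counting error only; the squares of mir-877 and mir-702 lie above 0 and their triangles below it.

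The NC minus ESC difference was then set side by side in library C and in A and B, on the log2 scale with a pseudocount of 1. With 1 library C in each group, whose own spread could not be estimated, no test was made. The difference in C was below that in A and B by a log2 value of -3.20 for mir-702, -1.74 for mir-877 and -0.39 for mir-484, and for these 3 members NC values lay above ESC values in A and B and below them in C. The same measure was 0.21 for mir-1224 and 0.01 for mir-1981. Counted from the lowest of the 306 miRNAs with a mean of at least 10, mir-702 ranked 2, mir-877 14 and mir-484 100.

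Library C lay above A and B in both groups for most members, but not for the 306 miRNAs as a whole. Their median log2 difference of C from A and B was 0.03 in ESCs and 0.0009 in NCs. On the log2 scale with a pseudocount of 1, C lay above the mean of A and B by 3.77 in ESCs and 2.03 in NCs for mir-877. The same difference was 2.13 and 2.14 for mir-1981, 2.01 and 1.62 for mir-484, and 1.34 and 1.55 for mir-1224. These 4 members exceeded 1 in both groups. Of the 306 miRNAs with a mean of at least 10, 35 did (11.4%), with mir-877, mir-1981 and mir-484 among them. mir-1224 was too low to enter that set, and its values in library C rest on 6 reads in ESCs and 10 in NCs. mir-877 lay at percentile 99.3 of the 306 in ESCs and 98.0 in NCs.

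mir-702 went another way. Its difference was 0.96 in ESCs and -2.24 in NCs, and this change between the groups was the second lowest relative to the 306 miRNAs. Across the 306, the differences of C in ESCs and NCs had a Pearson correlation of 0.741 and a Spearman correlation of 0.796. These are correlations across miRNAs, which share their libraries and size factors and are not independent replicates. Across 227 of them with a mature sequence, the difference of C had a Spearman correlation with GC content of 0.441 in ESCs and 0.391 in NCs. The GC content of the members' arms lay at 52.4% or above, as given with the sequences, and its part in their levels in library C was not tested.

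**Figure D5:**
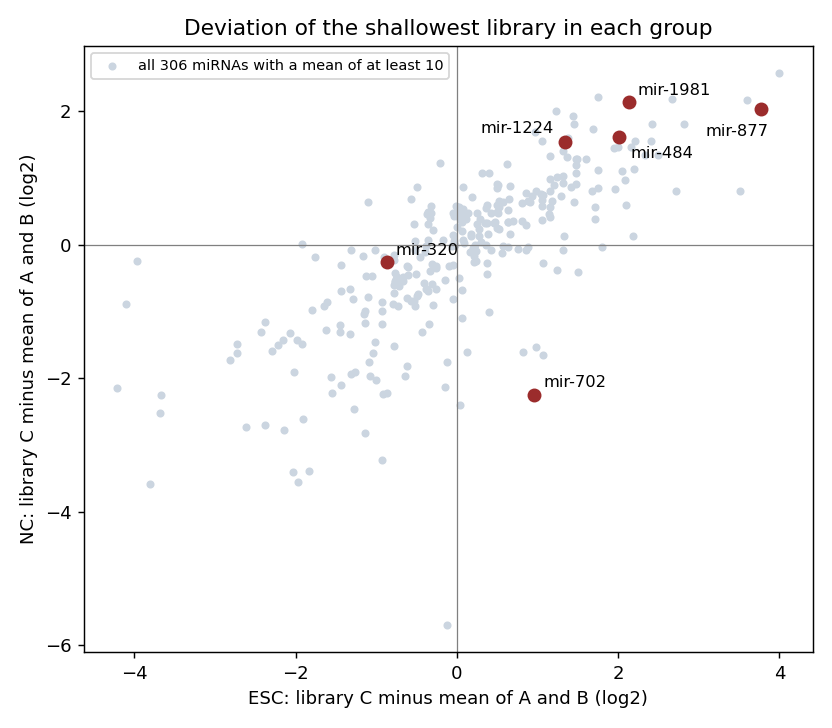
Log2 difference of library C from the mean of libraries A and B in ESCs (horizontal) and NCs (vertical) for the 306 miRNAs with a mean of at least 10 (grey) and the 6 members (red). mir-877, mir-1981, mir-484 and mir-1224 lie in the upper right, and mir-702 is at 0.96 and -2.24.

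The miRNAs most like each member over the 6 libraries were found among 260 with a mean of at least 20, by Pearson correlation of log2(normalised reads + 1). For mir-484 these were mir-423 (0.976) and mir-130b (0.976), for mir-877 mir-212 (0.987) and mir-470 (0.984), and for mir-1981 mir-1247 (0.973) and mir-484 (0.972). In all of them library C lay above the mean of A and B in both groups on the log2 scale. In ESCs and NCs the difference was 2.49 and 1.35 in mir-130b and 2.66 and 2.18 in mir-1247. It was smallest in mir-470, at 1.18 and 0.652. The likeness was thus one among miRNAs high in library C.

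The 3 members that fill an intron were the most abundant of their kind. By the same annotation, 14 other miRNA genes of the table had both ends within 5 bases of the ends of 1 intron on the same strand. Of these, 7 were above 0 in either group, and 0 exceeded the level of 3 reads in each library, which 395 of all 898 genes (44.0%) did. Together the 14 had 18 reads in ESCs and 28 in NCs. The highest was mir-7080, with an authors' mean of 3.06 in ESCs and 2.49 in NCs, followed by mir-3102 (1.33 and 1.75), whose 5p arm shares the seed of miR-702-5p. mir-7091 was at 0.411 and 1.49, mir-6970 at 0.965 in ESCs and 0 in NCs, and mir-7070 at 0 in ESCs and 0.714 in NCs.

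Other noncanonical routes were represented by hairpins within snoRNAs, the small RNAs that guide chemical modification of ribosomal RNA. mir-1839 had 152, 109 and 98.7 normalised reads in ESC libraries A, B and C and 170, 198 and 181 in NCs, with no overlap. mir-664 had 14.2, 20.3 and 10.96 in ESCs and 6.50, 4.10 and 1.71 in NCs, also with no overlap. Its values in NC libraries B and C rest on 4 reads and 1 read. With all 6 libraries, limma-voom gave mir-1839 a log2 fold change of 0.63 (adjusted p = 0.152) and mir-664 -1.70 (adjusted p = 0.0795). Neither passed, although with A and B alone both did, at 0.47 (adjusted p = 0.0356) and -1.50 (adjusted p = 0.00920). That fit called 160 of 322 miRNAs (49.7%). Library C did not lie above A and B for either of them in ESCs. mir-344, another hairpin that begins at a capped transcript end, has 2 copies in the table, and both were listed at 0.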

How the data were processed

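Small RNA from 3 ESC and 3 NC libraries was sequenced. The authors deposited 1 table whose signal columns held group means of reads divided by a size factor per library. It also held the ratio (fold), log2 fold change, p-value and adjusted p-value of the authors' own comparison, which were not used. The submitters' processing notes name DESeq and mm10. The aligner, miRNA annotation and counting rules were not given in the sources used here. The table does not separate hairpin arms.

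Since the means carried 10 decimals, the reads of the 3 libraries behind each could be found by trying whole numbers. Each size factor equalled the ratio of a single miRNA to its geometric mean within 1e-12. For libraries A, B and C they were 1.62, 0.937 and 0.547 (ESCs) and 2.31, 0.977 and 0.585 (NCs). Resolved miRNAs held 11.1% of the ESC signal and 8.37% of the NC signal, since the most abundant were not resolved. On simulated means, 497 of 497 and 538 of 538 resolved miRNAs were right.

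limma 3.58.1 (R 4.3.3) was run with voom weights, Benjamini-Hochberg adjustment and two-sided tests. A filter kept miRNAs with 10 reads or more in 3 libraries, or in 2 where a group had 2. The fit was also run on simulated reads without a shift of library C, so that run does not cover such a shift. mir-702 and mir-1224 missed the filter with all 6 libraries, and their values come from the fit without it, which was chosen after seeing the data. So were the fit of libraries A and B without the filter and its scalings. Intervals are at 95%. Those of limma cover the spread between libraries, and Poisson and exact intervals and the limits of 3 reads cover counting error only. Positions were from GENCODE M21 (GRCm38), sequences from RefSeq. Other steps used scipy 1.17.1 in Python 3.11.15. Alternatives covered the scaling, filter, pseudocount, limma-trend and each library left out. The members and lists were chosen with earlier results of these data known. The 6 members were always named. Of other intron-filling miRNAs the 5 with the highest mean were named, with 3 hairpins of other noncanonical routes, and for likeness the 2 best correlated miRNAs of members with a mean of at least 10 in both groups.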

Additional observations from a re-analysis of the deposited data

Results flagged for a closer look

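In 3 members the libraries of a group did not move together: from ESCs to NCs, mir-702, mir-877 and mir-484 were higher in libraries A and B and lower in library C. The log2 difference in C minus that in A and B was -3.20 for mir-702, -1.74 for mir-877 and -0.39 for mir-484. Counted from the lowest of the 306 miRNAs with a mean of at least 10, these values ranked 2, 14 and 100. That of mir-484 was thus not unusual. None of this was tested, since library C is 1 library in each group, matched between the groups by depth order alone. The value of mir-702 in C rests on 7 reads in ESCs and 2 in NCs, and that of mir-877 on 153 and 96 reads. The labels give no batch for these libraries.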

How the results depend on the processing

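No paired analysis was possible because no replicate number is tied to a recovered library. The number of miRNAs called was 49 with all 6 libraries, 141 with the library set as covariate and 160 with A and B alone, with or without the filter, and it ranged from 17 to 52 when 1 library was left out (17 without ESC A, 19 without ESC B, 22 without NC B and 29 without NC A). Equal totals gave 20 higher and 38 lower, and 47 and 10 without mir-10a, against 31 and 18. With A and B alone, 2 members were called with or without the filter, mir-877 at a log2 fold change of 0.95 in both fits and mir-702 at 1.71 and 1.72, the former with a filter that mir-702 met only through NCs. Equal totals turned mir-484 to -0.46 and mir-1981 to -0.0060, neither called. With A and B alone, equal totals gave mir-484 -0.33, mir-1981 -0.015 (-0.017 without the filter) and mir-702 1.23 (1.24), and equal totals without mir-10a gave 0.58, 0.90 and 2.15 (2.16), and 1.39 for mir-877. Leaving out 1 library moved mir-484 between -0.53 and 0.74 and mir-877 between -0.16 and 1.49, without a call, and the log2 ratio of the mir-877 group means between -1.41 and 2.00, the latter without ESC library C. Of 71 recomputed log2 fold changes of members, 46 kept their direction and call. Of 60 recomputed log2 ratios of group means, 9 changed sign, as in mir-1981 with equal totals (-0.02) and mir-484 without ESC library C (0.91). The causes were not tested. Depth limits mir-320, mir-1224 and mir-702 most.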
